A study of Mus musculus with 3 samples.

Results

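The promoters described here belong to long noncoding RNA (lncRNA) genes that lie away from protein-coding genes. They were taken from the GENCODE M21 annotation of the mouse genome as genes of the type lincRNA, lncRNA, antisense or bidirectional_promoter_lncRNA whose start is over 5 kb from the start of any protein-coding transcript. Of 9003 lncRNA starts of these types 6809 met the rule, 5197 lincRNA genes, 1611 antisense genes and 1 gene of the bidirectional type. Each was examined in a window of 500 bp to either side of its start. Some windows overlap, and the 6809 windows form 6697 separate stretches. The series has 55413 annotated gene starts in all, of which 21938 are protein-coding.

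The study mapped open chromatin by DNase-seq, in which the enzyme DNase I cuts accessible DNA, in liver of mouse embryos at 13.5 days. All 3 libraries belong to 1 group, from animals of strain C57BL/6N,129 with a deletion of HS2 and HS3 labelled as a homozygous globin mutation, and the labels give the 3 biological replicates separate biosamples under 1 shared donor entry. Unaltered liver was not analysed here, and every value is a description of this group, and errors and p-values measure only the spread between these 3 replicates. The sex of the embryos was not collected.

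Long noncoding RNAs are transcripts without a long reading frame, many of them spliced and capped like messenger RNAs. Their promoters are on average poorer in CpG dinucleotides and active in fewer tissues than those of coding genes. The best known act in the nucleus, such as Xist, which coats the inactive X chromosome, and Kcnq1ot1 and Airn, which silence neighbouring genes on the paternal chromosome. Fetal liver at this age is the main site of red blood cell formation, and Bloodlinc is a noncoding RNA described from developing mouse red cells.

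The 3 libraries differed in how many peaks they gave. A window was called open where a peak of the shorter of the 2 deposited peak lists reached it by at least 1 bp, and the 3 lists contained 28209, 57314 and 41319 peaks for replicates 1, 2 and 3. Peaks of the 3 replicates were joined where they touched, and a window reached by a joined region with a peak in each replicate was called open in all 3. The signal of a window is the authors' read-depth normalized signal of its strongest peak, and 0 means that the list held none. Among markers of cell types, the red cell genes Epor, Klf1 and Tal1 had starts open in all 3 replicates, and Gata1 and Slc4a1 did not. For hepatoblast genes the number open in all 3 was 0 of 6, with 1, 4 and 0 open in replicates 1, 2 and 3, and it was 0 of 4 each for macrophage, megakaryocyte, endothelial, neutrophil, lymphoid and mesenchymal genes. In whole tissue, fewer cells of a type and less open chromatin per cell cannot be told apart.

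The sequences under 7 of the open windows are given as examples, and were chosen to cover the strongest peaks, a well-known gene, the remotest strong promoter, an imprinted promoter and neighbours of red cell genes. Of these sequences, those of Zfp469 and Kcnq1ot1 lie at starts within the bodies of annotated protein-coding genes, and the Zfp469 peak may not mark a promoter. Each is the stretch shared by the peaks of all 3 replicates, cut to its central 240 bases where it was longer, and is read 5′ to 3′ on the strand of the gene from the GRCm38 genome, which is the mm10 build of the files. Capitals mark bases inside a footprint, a short protected stretch within open chromatin, in all 3 replicates.
Tmem250-ps, chr2:26140501-26140600, minus strand: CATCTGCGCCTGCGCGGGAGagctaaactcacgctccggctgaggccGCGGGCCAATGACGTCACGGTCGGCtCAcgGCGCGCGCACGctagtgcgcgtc
1700096K18Rik, chr5:25529590-25529829, plus strand: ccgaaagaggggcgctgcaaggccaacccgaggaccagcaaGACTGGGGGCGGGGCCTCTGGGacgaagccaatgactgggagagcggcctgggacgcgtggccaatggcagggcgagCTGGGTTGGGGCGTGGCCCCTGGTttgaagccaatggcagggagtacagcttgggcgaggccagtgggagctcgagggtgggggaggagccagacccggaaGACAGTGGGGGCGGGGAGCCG
Malat1, chr19:5802601-5802760, minus strand: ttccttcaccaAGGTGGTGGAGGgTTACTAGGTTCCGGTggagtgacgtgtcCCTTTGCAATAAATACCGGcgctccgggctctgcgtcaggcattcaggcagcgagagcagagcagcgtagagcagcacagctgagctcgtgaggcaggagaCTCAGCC
Gm26901, chr1:7397821-7398020, minus strand: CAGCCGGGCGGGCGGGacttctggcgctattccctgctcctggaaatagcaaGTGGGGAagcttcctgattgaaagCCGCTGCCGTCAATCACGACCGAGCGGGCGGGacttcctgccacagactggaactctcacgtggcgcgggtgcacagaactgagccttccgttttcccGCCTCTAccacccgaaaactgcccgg
Zfp469, chr8:122269521-122269680, plus strand: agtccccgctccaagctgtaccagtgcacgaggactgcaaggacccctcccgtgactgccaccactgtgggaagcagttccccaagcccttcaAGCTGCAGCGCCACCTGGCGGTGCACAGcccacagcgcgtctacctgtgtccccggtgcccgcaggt
4930553P18Rik, chr6:86004381-86004560, plus strand: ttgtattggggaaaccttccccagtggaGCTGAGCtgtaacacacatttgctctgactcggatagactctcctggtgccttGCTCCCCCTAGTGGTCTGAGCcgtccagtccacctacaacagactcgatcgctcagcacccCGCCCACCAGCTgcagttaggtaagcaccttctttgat
Kcnq1ot1, chr7:143296570-143296809, minus strand: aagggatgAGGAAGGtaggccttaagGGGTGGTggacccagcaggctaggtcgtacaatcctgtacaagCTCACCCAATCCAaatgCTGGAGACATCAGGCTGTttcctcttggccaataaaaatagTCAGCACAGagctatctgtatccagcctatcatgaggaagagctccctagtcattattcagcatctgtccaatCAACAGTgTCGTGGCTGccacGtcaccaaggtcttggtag

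The strongest of these, Tmem250-ps, held 17 CpG dinucleotides in 100 bases and 58 bases in shared footprints. Its footprints covered the letters CCAAT (bases 53 to 57 of the printed stretch), which the factor NF-Y is known to bind, and TGACGTCA (bases 57 to 64), the site of CREB and ATF factors, the 2 words sharing a base. A match to GCGCNTGCGC, the site of NRF1, lay at bases 6 to 15, also in capitals. In 1700096K18Rik the footprints covered 2 copies of GGGCGG, the GC box bound by Sp1 and its relatives, while 3 copies of CCAAT lay outside them. Gm26901 had 3 copies of GGGCGG, all inside footprints. Kcnq1ot1 had 3 CpG dinucleotides in 240 bases and 3 copies of CCAAT, 1 of them inside a footprint. In Zfp469 and 4930553P18Rik, a footprint covered a match to CCNNNAGNNGG, a core of the site of the insulator protein CTCF, read on the opposite strand. These are matches of letters and not evidence of a bound factor. The words TGACGTCA, GCGCNTGCGC and CCNNNAGNNGG were chosen after these sequences had been read.

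Few of the lncRNA promoters were open. A peak reached 288 of the 6809 windows in replicate 1, 569 in replicate 2 and 416 in replicate 3, or 4.23%, 8.36% and 6.11%, a mean of 6.23% ± 2.07 (SD, n = 3). Over protein-coding gene starts the shares were 46.7%, 52.2% and 50.4%, a mean of 49.8% ± 2.80. The lncRNA share was lower by 43.5 percentage points (mean difference -43.5 ± 0.966, SD, n = 3) and was lower in 3 of 3 replicates. An exact two-sided sign-flip permutation test over the replicates gave p = 0.25, the smallest value that 3 replicates allow. The differences of the replicates lay between -42.5 and -44.3 points, so the gap was larger than their spread.

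In all 3 replicates together 287 lncRNA windows were open, or 4.22%, against 46.2% of protein-coding starts. They form 271 separate stretches. In 279 of the 287 a peak of each replicate lay in the window itself. With the longer peak list 406 lncRNA windows, 5.96%, were open in all 3, against 50.6% of protein-coding starts. The 2194 lncRNA starts within 5 kb of a coding start, which the rule leaves out, were open in all 3 replicates in 39.8% of cases. That share came from the closest ones: within 2 kb of a coding start 48.5% of 1728 were open, and between 2 and 5 kb 7.73% of 466, next to 7.34% of the 368 members between 5 and 8 kb. The distance rule therefore cuts through a range where the share was already low.

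Replicate 2 held many open lncRNA promoters that the others lacked. Of the 596 windows with a peak in any replicate, 279 had one in all 3, 175 in replicate 2 alone, 113 in replicates 2 and 3, 20 in replicate 3 alone and 3 in replicate 1 alone. Windows of replicate 2 alone made up 29.4% of the open lncRNA windows and 5.38% of the open protein-coding starts. Those with a peak in all 3 made up 46.8% of the open lncRNA windows and 85.6% of the open protein-coding starts. When each replicate was reduced to the same number of its strongest peaks, that of replicate 1, the mean share of open lncRNA windows was 4.24% ± 0.0389 (SD, n = 3). Lists of equal length bring the shares together largely by construction. With the full lists, the share of open lncRNA promoters and the length of the list had the same order, lowest in replicate 1 and highest in replicate 2.

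Most of the other windows held no base that passed the authors' limit on cut density in any replicate. Of the 6213 lncRNA windows without a peak, 94.3% held no base in any replicate whose cut density passed the false discovery rate of 0.05, the limit of the authors' list. The share was 84.7% of the protein-coding starts without a peak. In 22 lncRNA windows without a peak such a base was listed in all 3 replicates. A base outside the list did not pass the limit, which does not mean that it was never cut. The longer peak list reached 860 of the 6809 members in at least 1 replicate, against 596 with the shorter list. Footprints were not counted over the windows without a peak.

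Peak centres were more frequent close to lncRNA starts than farther away. A peak centre lay in the 500 bp upstream of the start in 3.91% ± 1.35 of members and in the 500 bp downstream in 2.54% ± 0.706, against 0.827% ± 0.379 per bin of 500 bp at distances of 2 to 5 kb (SD, n = 3). Around protein-coding starts the 3 values were 32.04% ± 4.04, 24.5% ± 1.15 and 1.66% ± 0.564. In every replicate the upstream bin was the highest of both profiles. A window can also be open through a peak away from its start. At AC154766.4 the peak of each replicate ran from 23550241 to 23550460, and the start is at 23550799.

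**Figure D1:**
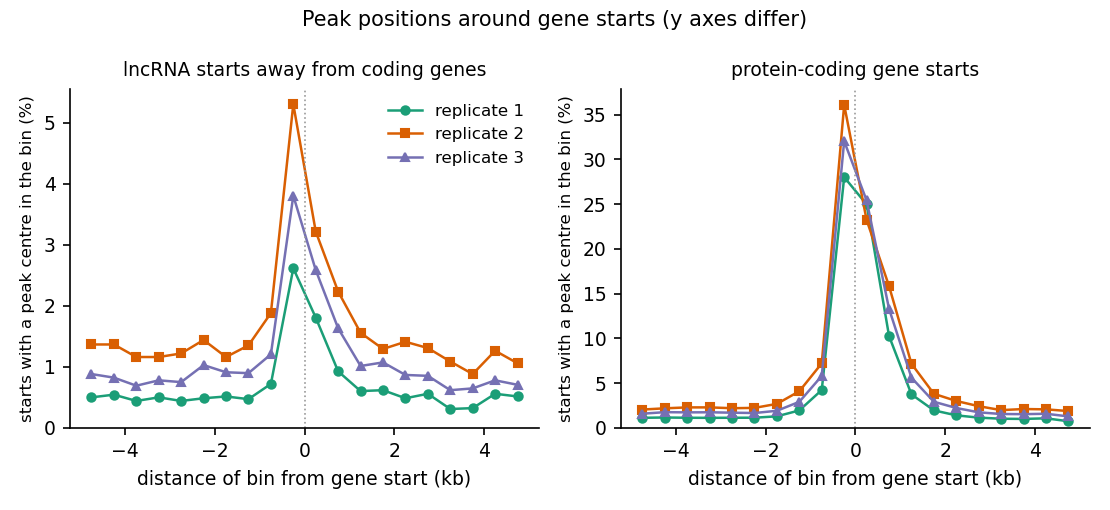
Share of gene starts with a peak centre in each bin of 500 bp, against the distance of the bin from the start in kb (negative is upstream), for lncRNA starts away from coding genes (left) and protein-coding gene starts (right, on a larger y axis), with 1 line per replicate. Both profiles are highest in the bin just upstream of the start, at 2.61%, 5.30% and 3.80% of lncRNA starts in replicates 1, 2 and 3, and replicate 2 lies above the other replicates across the bins at lncRNA starts.

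Open lncRNA promoters were also weaker. The median signal of open windows was 1.97, 1.15 and 1.40 at lncRNA starts in replicates 1, 2 and 3, and 5.07, 5.63 and 4.67 at protein-coding starts. On the log2 scale the difference between the medians was -1.80 ± 0.46 (SD, n = 3), lower at lncRNA starts in 3 of 3 replicates (exact two-sided sign-flip permutation p = 0.25, the smallest possible). Among windows open in all 3 replicates the mean signal was at least 5 in 59 lncRNA windows, or 20.6%, and in 55.6% of protein-coding ones. The median over those lncRNA windows was 2.17. Replicate 2 gave the highest of the 3 signals in 185 of the 287. This was not particular to lncRNA starts. Among windows open in all 3, the median signal in replicates 1, 2 and 3 was 2.02, 2.50 and 2.10 at lncRNA starts. It was 5.13, 6.59 and 5.07 at protein-coding starts.

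Footprints were present at most open lncRNA promoters, though in lower numbers. At least 1 footprint lay in 96.5%, 88.6% and 96.4% of open lncRNA windows, against 98.8%, 97.3% and 98.8% of open protein-coding starts. The mean difference was -4.45 ± 3.69 percentage points (SD, n = 3), lower at lncRNA starts in 3 of 3 replicates (exact sign-flip permutation p = 0.25). Its size rested on replicate 2, without which it was -2.32 points, and it was -1.78 points with equal numbers of peaks and -13.3 with the longer list. The median number of footprints was 4, 3 and 3 in open lncRNA windows and 6, 6 and 7 in open protein-coding windows. Of the 287 lncRNA windows open in all 3 replicates, 263 held a footprint in each.

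The CpG content of the window went with openness in a graded way. The CpG ratio is the number of CpG dinucleotides over the number expected from the C and G content. Among members with a ratio under 0.25, which were 4239 of the 6809, 41 or 0.967% were open in all 3 replicates. The share was 5.38% of 2195 windows between 0.25 and 0.5, 27.9% of 294 between 0.5 and 0.75, and 56.8% of 81 above 0.75. At protein-coding starts the shares in the same classes were 1.32%, 20.8%, 69.9% and 87.0%. In each class the share open in a replicate was lower for lncRNA than for protein-coding starts in 3 of 3 replicates; in the lowest class it was 0.967%, 3.89% and 2.01%, against 1.39%, 4.91% and 2.57%. Only 46 of the 287 open lncRNA promoters, 16.0%, had a ratio above 0.75, against 51.7% of the open protein-coding starts, so most open lncRNA promoters fell outside the richest class. Their median ratio was 0.466, against 0.757 in open protein-coding windows.

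**Figure D2:**
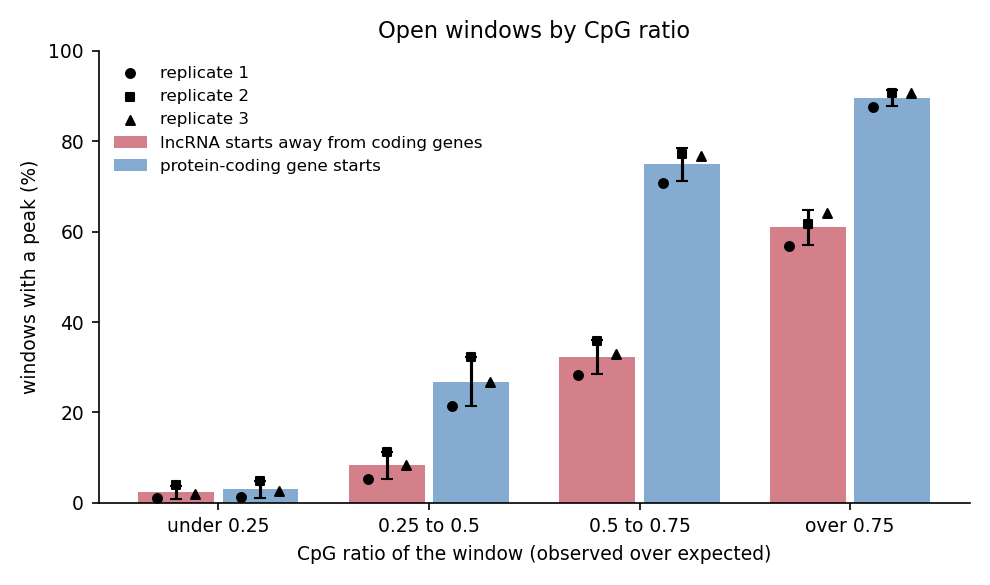
Share of windows with a peak, in percent, in 4 classes of CpG ratio, with bars for the mean over 3 replicates, error bars for the SD and marks for the single replicates; lncRNA starts stand left of protein-coding starts in each class. The share climbs with the CpG ratio in both kinds, to 60.9% ± 3.77 at lncRNA starts and 89.6% ± 1.82 at protein-coding starts above 0.75.

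The share open varied little with the distance to coding genes up to 100 kb and was lower beyond it. Of members 5 to 10 kb from the nearest coding start 6.45% were open in all 3 replicates, of those at 10 to 25 kb 6.71%, at 25 to 100 kb 5.37%, and beyond 100 kb 1.44% (37 of 2571). Starts inside the body of a coding gene were open in 3.11% of 1445 cases and those between genes in 4.51% of 5364. Members whose nearest coding gene was itself open in all 3 replicates were open in 5.50% of 3052 cases, and the others in 3.17% of 3757. The 2 main gene types hardly differed, with 4.29% of lincRNA and 3.97% of antisense genes open. Windows with over 50% repeats were open in 0.443% of cases and those with under 10% repeats in 8.20%. Protein-coding starts went the same way, with 1.78% and 58.7% in these 2 classes.

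Chromosome 17 had the highest share of open members, 11.6% of 267, whereas none of the 549 members on chromosome Y had a peak in any replicate. On chromosome Y 99.5% of the member windows consisted for less than 50% of words of 32 bases that occur once in the genome, a measure of how well short reads can be placed, and the sex of the embryos is not given. The part of either in this count was not tested. Among all members, windows with under 50% unique words were open in 1.58% of 947 cases and those with over 90% in 4.98% of 4896. At protein-coding starts the same classes had shares of 5.17% and 52.4%. Outside chromosome Y 4.58% of members were open in all 3 replicates.

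Some open members share their window with another gene start, to which the peak may equally belong. This was so for 33 of the 287, or 11.5%, against 4.08% of all members. RefSeq, a second annotation, placed the start of a messenger RNA within 500 bp of 19 of the 287, 6.62%, against 1.79% of all members. After such starts and noncoding transcripts of coding genes were set aside, 265 open members were left.

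Words of transcription factor sites were then counted in the whole windows. Open windows had a median GC content of 52.2% and those without a peak of 45.4%, so words rich in C and G are more frequent in the open ones by composition. GGGCGG was found, on either strand, in 56.8% of the open windows, in 15.3% of the windows without a peak, in 89.4% of protein-coding windows open in all 3 replicates and in 60.4% of all protein-coding windows. CCGGAAG, a site of ETS factors, was found in 22.6%, 5.89%, 33.4% and 19.2% of these sets. AGATAA or TGATAA, written together as WGATAA and known as the site of GATA factors such as the red cell regulator GATA1, was found in 52.96% of the open windows, 66.6% of the windows without a peak, 31.5% of open protein-coding windows and 44.3% of all protein-coding windows. TGAGTCA or TGACTCA, bound by NF-E2 and AP-1 factors, was found in 17.8%, 17.1%, 8.41% and 12.1% of these sets. Over the whole window of 1 kb the GATA word was thus no more frequent in open than in closed members, though more frequent in open members than in open protein-coding windows.

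The bases inside the peaks were searched for the same words. The peaks of the 3 replicates shared bases in 259 separate open lncRNA stretches and in 8639 at protein-coding starts, and only these bases were searched. WGATAA was found in 12.7% of the lncRNA stretches (33 of 259), against 3.62% of the protein-coding stretches. Where the CpG ratio was under 0.5 the shares were 18.6% of 145 lncRNA and 8.65% of 809 protein-coding stretches, and at 0.5 or more 5.26% of 114 lncRNA and 3.12% of 7854 protein-coding stretches. The NF-E2 word was found in 4.25% of the lncRNA stretches, against 1.67% of the protein-coding ones. GGGCGG was less frequent in lncRNA stretches, with 36.3% of the lncRNA stretches against 67.4% of the protein-coding ones. These shares pool the 3 replicates and carry no test. Of the 38 WGATAA matches in lncRNA stretches 4, or 10.5%, touched a footprint shared by all 3 replicates, against 35 of 338, or 10.4%, in protein-coding stretches. The 4 lie in 5830454E08Rik, Gm16170, Gm28286 and 4930463O16Rik, which were named after their values were seen.

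The CTCF core was found in 37.8% of the lncRNA stretches and in 30.8% of the protein-coding ones. Where the CpG ratio was under 0.5 the shares were 42.8% of lncRNA and 32.01% of protein-coding stretches. At 0.5 or more they were 31.6% and 30.6%, so the difference lay mainly in the class poorer in CpG. Of the 115 matches of the core in lncRNA stretches 53.9% touched a shared footprint, against 40.0% at protein-coding starts. Shared footprints covered 13.3% of all searched bases in lncRNA stretches and 15.8% in protein-coding ones. A match counted as touching a footprint with 1 base, so longer words touch more often. Over whole windows the core was found in 65.5% of open members, 40.8% of members without a peak, 69.9% of open protein-coding windows and 58.6% of all protein-coding windows. The NRF1 word was found in 4.63% of the lncRNA stretches, against 12.1% of the protein-coding ones, and TGACGTCA in 2.32% of the lncRNA stretches, against 3.89% of the protein-coding ones. A shared footprint touched 11 of the 13 NRF1 matches in lncRNA stretches, or 84.6%, against 87.4% in protein-coding stretches, and 4 of the 6 TGACGTCA matches, or 66.7%, against 76.4% in protein-coding stretches.

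Among single members, Gm42418 stood apart from all others. Its window, around chr17:39846958 (plus strand), had a signal of 140.9 in replicate 1, 139.5 in replicate 2 and 142.1 in replicate 3, each the highest of the whole peak list, while the next member averaged 18.6. GENCODE annotates an rRNA gene, CT010467.1, across this start on the opposite strand, and RefSeq a pseudogene related to 18S ribosomal RNA, Rn18s-rs5. In its window 48.2% of the words of 32 bases occur once in the genome. Ribosomal RNA genes are present in many copies in arrays that the genome sequence largely leaves out, and the part of their reads in this signal was not tested.

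The other 19 of the strongest 20 lay above 5.61, the median of the mean signals of open protein-coding windows. Tmem250-ps (chromosome 2, start at 26140521) had a signal of 17.5, 24.2 and 14.1 in replicates 1, 2 and 3, and RefSeq places a messenger RNA start 15 bp from it. 1700096K18Rik (chromosome 5, 25530013), 13.9 kb from Cct8l1, had 12.3, 24.1 and 13.1. 6720427I07Rik (chromosome 13, 48546500) had 11.8, 20.9 and 12.3. In all of these replicate 2 was the highest. Gm11205, 44.1 kb from the coding start of Rab11fip4, was even across replicates, with 12.4, 12.6 and 13.4. The next were Gm15287, the strongest antisense gene (11.1, 17.5 and 9.48), Gm2885 (10.3, 14.99 and 11.1), Malat1, Gm31812 (10.04, 13.9 and 9.28) and AC154766.4, the antisense gene after Gm15287 (10.3, 11.7 and 10.8). Mean signals of the remaining 10 of the strongest 20 lay between 8.54 and 9.997, and all 20 had footprints in each replicate.

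Several of them coincide with other genes. Gm40190 shares its window with the microRNA gene Mir760, C920006O11Rik with Rn7sk, which encodes the 7SK RNA that restrains transcription elongation, and 4932412D23Rik with a start of Zbtb20. A messenger RNA start of Zbtb20, a protein-coding gene in RefSeq, lies 73 bp from the start of 4932412D23Rik. RefSeq names the gene at 1700020I14Rik Oip5os1, a conserved lncRNA also called Cyrano. Its signal was 6.615, 11.7 and 7.29. The strongest members over 100 kb from any coding start were, after Gm42418, Gm26901, 309 kb from Pcmtd1, with 8.39, 10.8 and 7.19, and Gm20732, 104 kb from Zfat, with 7.18, 11.3 and 7.20. Gm26901 also had the most footprints of the 20 on average, with 14, 18 and 19.

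**Figure D3:**
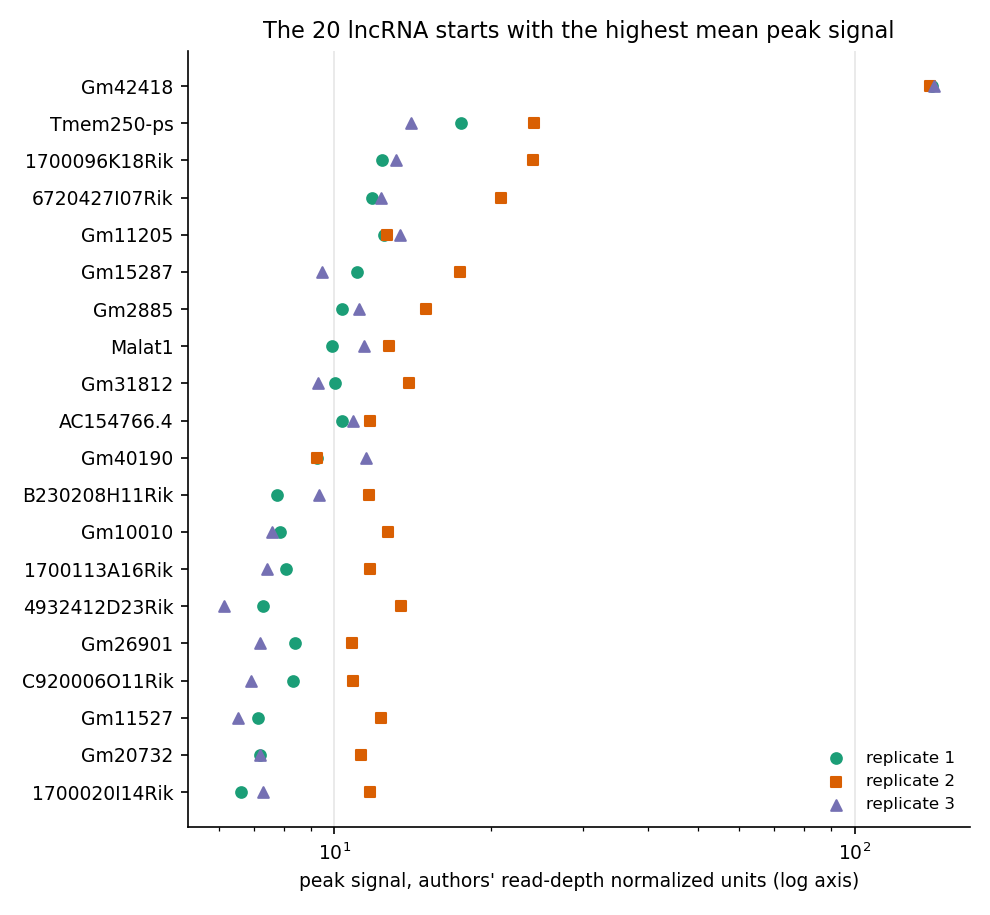
Peak signal (log axis, authors' read-depth normalized units) of the 20 lncRNA starts with the highest mean signal, 1 mark per replicate, ordered from the highest mean down. Gm42418 lies at 140.8 on average and the others at 18.6 or less, and in most rows the square of replicate 2 is farthest to the right.

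Known lncRNAs were examined by group. Of 109 listed names 83 were annotated under that name and 41 of them were members, and 12 of the 41 were open in all 3 replicates, 8 in some and 21 in none. The share open in all 3, 12 of 41, is set beside 287 of all 6809 members, and the list was put together from well-studied genes.

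Nuclear and housekeeping lncRNAs were the group with the largest share open. Of 6 members 5 were open in all 3 replicates, and Snhg20, a snoRNA host gene, had no peak. Malat1, an abundant nuclear RNA of splicing speckles, had a signal of 9.90, 12.7 and 11.4. Neat1, the scaffold of nuclear paraspeckles, had 7.46, 9.41 and 6.49, in a window that also holds the start of Frmd8os. The snoRNA host genes Snhg12 and Snhg6 had 4.08, 5.62 and 4.63, and 3.86, 5.11 and 3.72. Epb41l4aos had 5.19, 6.56 and 7.09. All 5 had their lowest signal in replicate 1 or 3, and none was below 3.72.

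Of the 5 imprinted members 3 were open in all 3 replicates, as were 2 of the 4 members of the X inactivation group. Kcnq1ot1, which starts inside Kcnq1, had 2.38, 7.36 and 3.71. This was 1 of the 3 largest ratios between replicates among the 279 members with a peak of each replicate in the window. The others were those of Gm20443 (1.78, 5.25 and 3.398) and Gm15726 (3.41, 1.81 and 1.04). At Gm15726 the peaks of replicates 1 and 3 ended at 169985220 and 169985260, and that of replicate 2 began at 169985721. Its ratio thus compares different peaks, in a window where 25.5% of the words used to measure read placement occur once in the genome. H19, an abundant maternally expressed RNA of embryonic liver, had 1.58, 2.08 and 1.21, and Airn, which starts inside Igf2r, had 1.01, 1.26 and 0.904. Meg3 had a peak in replicate 2 alone, with 0.736, and Mirg had none. Jpx, an activator of Xist, had 1.83, 1.74 and 1.59, and Ftx, which lies in the same X inactivation centre, had 0.907, 0.711 and 0.648. Xist had no peak in replicate 1 and signals of 1.02 and 0.723 in replicates 2 and 3, and its antisense partner Tsix had no peak. At Xist the presence of female and male embryos in each sample is not known, and its part in these values was not tested.

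In the group listed as microRNA hosts 1 of 10 members was open in all 3 replicates. The list is wider than its name: Lncpint is known as a p53-induced RNA, and RefSeq describes Mirt1 as a transcript associated with myocardial infarction. Mir17hg, host of the growth-promoting miR-17 to miR-92 cluster, had 3.41 in replicate 1, no peak in the window in replicate 2 and 2.52 in replicate 3, although the joined region over it had a peak in each. Lncpint, Mir155hg, Mirt1 and Dnm3os had a peak in 1 replicate each, at signals of 0.402 to 0.768, and 5 members of the group had none. In the growth and p53 group Pvt1, which lies beside Myc, had 1.69, 1.26 and 1.70, and Miat and Trp53cor1 had no peak in the shorter list. None of the 9 developmental and neural members, among them Hotair of the HoxC cluster, Halr1 next to the HoxA cluster and Dlx6os1, had a peak in any replicate. Of the 4 members listed as blood and immune, of which RefSeq describes Lncenc1 as expressed in embryonic stem cells, Ptgs2os2 had 0, 0.460 and 0.573, Bloodlinc had a peak in replicate 2 alone, and Lncenc1 and Ifngas1 had none.

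**Figure D4:**
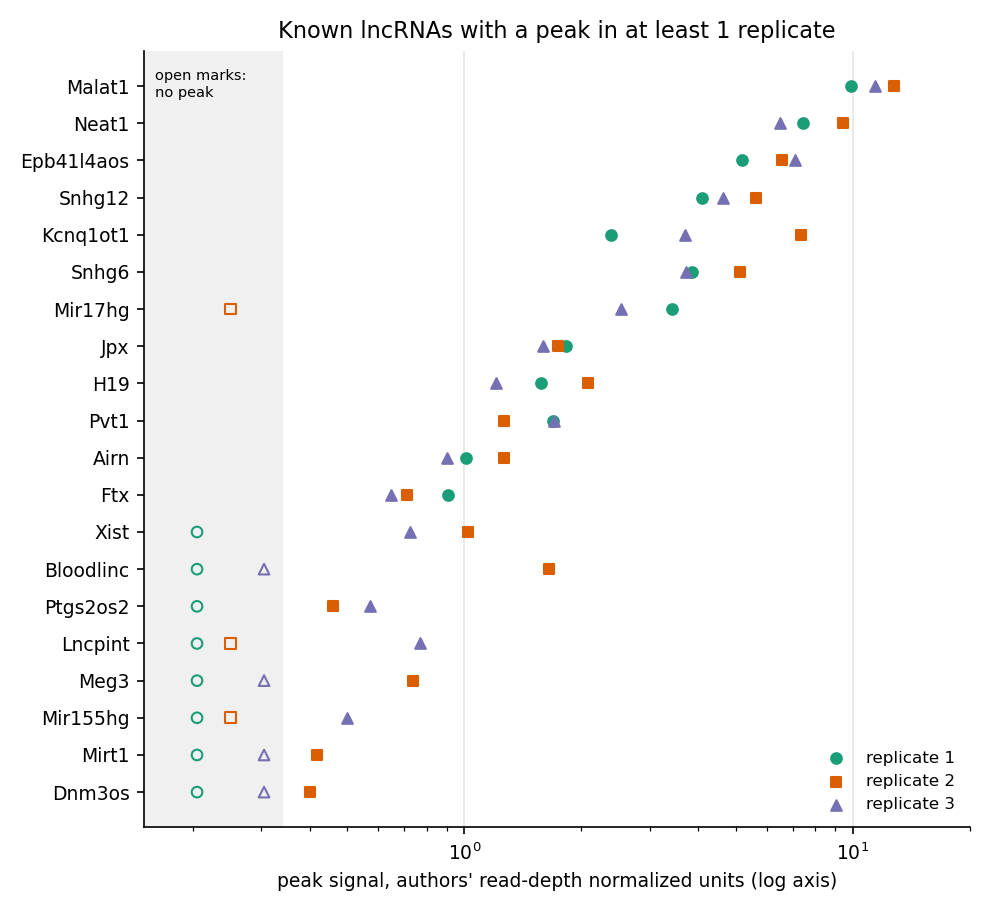
Peak signal (log axis, authors' read-depth normalized units) of the 20 known lncRNAs with a peak in at least 1 replicate, 1 mark per replicate; open marks on the grey band stand for replicates without a peak and have no position on the axis. Malat1 and Neat1 lie highest, and below Ftx every gene lacks a peak in replicate 1.

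Members near red cell genes were open more often than all other members, but on few genes and without matching for distance to coding genes. The list of 78 red cell genes held transcription factors, membrane and cytoskeleton genes, globins and genes of heme and iron metabolism. Of the 78, 54 had starts open in all 3 replicates, beside 46.2% of all protein-coding starts. Within 100 kb of the red cell genes lay 41 members, near 30 of these genes. Open were 3, 11 and 8 of the 41 in replicates 1, 2 and 3, or 7.32%, 26.8% and 19.5%, a mean of 17.9% ± 9.86. Among the other 6768 members the shares were 4.21%, 8.24% and 6.03%, a mean of 6.16% ± 2.02 (SD, n = 3). The difference was 11.7 ± 7.89 percentage points, higher near red cell genes in 3 of 3 replicates (exact two-sided sign-flip permutation p = 0.25, the smallest possible). It was 3.11 points in replicate 1 and 18.6 in replicate 2. Open in all 3 replicates were 3 of the 41, or 7.32%, against 4.20% of the other members, so the excess came mainly from peaks that replicate 1 lacked. The other members include those over 100 kb from any coding start, of which a mean of 2.92% ± 1.67 were open. Among all members the mean was 9.81% ± 3.31 at 5 to 10 kb, 9.11% ± 2.28 at 10 to 25 kb and 7.45% ± 2.10 at 25 to 100 kb. The part of this distance in the difference was not tested.

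The share was similar at other distances. Within 50 kb it was 21.1% ± 10.5 of 19 members, against 6.19% ± 2.04 of the others, and within 250 kb 15.2% ± 7.14 of 112 members, against 6.08% ± 1.98. Members near the same gene are not independent: 5 of the 41 lie near Myb, and 8 red cell genes account for all 11 open members.

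**Figure D5:**
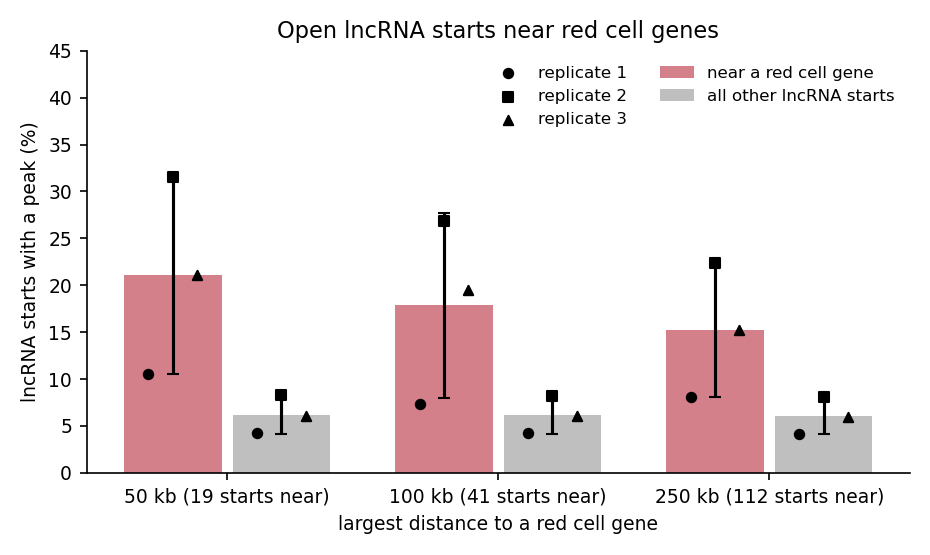
Share of lncRNA starts with a peak, in percent, within 50, 100 and 250 kb of a red cell gene (left bar of each pair) and among all other members (right bar), with bars for the mean over 3 replicates, error bars for the SD and marks for the replicates. The starts near red cell genes lie above the others in each replicate at each distance, with the lowest marks in replicate 1.

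The 3 members open in all replicates lie near a cofactor, a membrane skeleton gene and a kinase. Zfp469 (chromosome 8, start at 122269569, plus strand) is 12.6 kb from Zfpm1, which encodes FOG1, the partner of GATA1. It had a signal of 3.67, 2.92 and 3.76, with 5, 3 and 3 footprints. GENCODE types it as lincRNA, but RefSeq annotates a protein-coding gene of the same name across this start, so the annotations differ on whether it is noncoding. The RefSeq gene runs from 122043123 to 122272650, and GENCODE also has a protein-coding gene, Gm20388, across the start. The start thus lies within the bodies of annotated coding genes, and whether its peak marks a promoter was not tested. 4930553P18Rik (chromosome 6, 86004380, plus strand) is 24.3 kb from Add2, which encodes β-adducin of the membrane skeleton, and 12.8 kb from Figla. It had 3.15, 3.9996 and 2.80, with 3 footprints in each replicate. The peaks of both hold the CTCF core printed above inside a shared footprint. D130017N08Rik (chromosome 5, 143758354) is 59.4 kb from Eif2ak1, the heme-regulated kinase that limits globin synthesis, but RefSeq places a messenger RNA start of Usp42 1399 bp away. It had 1.60, 2.05 and 1.60.

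The other 8 open members near red cell genes had no peak in the shorter list of replicate 1. Near Myb, a regulator of blood progenitors, Gm40608 had 0, 1.88 and 1.02 in replicates 1, 2 and 3, and Gm26577 had 0.845 in replicate 2 alone. Near Ermap, a red cell membrane protein, Gm12868 had 0, 1.98 and 1.76 and Gm12867 had 0.485 in replicate 2 alone. They lie 51.2 and 59.0 kb from Ermap and nearer to Slc2a1, at 29.9 and 22.1 kb. Gm8066, 59.6 kb from the transferrin receptor gene Tfr2 and 7.735 kb from Pop7, had 0, 1.24 and 1.70. RefSeq places a messenger RNA start of Gigyf1 10 bp from Gm8066. 1700021J08Rik, 8.60 kb from the heme synthesis gene Urod, had 0, 1.28 and 1.07, and Gm45353 near Zfpm1 had 0, 0.711 and 0.784. Gm12868 and Gm8066 did have a peak in the longer list of replicate 1, with signals of 1.64 and 2.09.

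Bloodlinc itself, 10.8 kb from a start of Slc4a1, the anion exchanger of the red cell membrane, had a signal of 1.65 in replicate 2, with 1 footprint, and no peak in replicates 1 and 3 in either list. The remaining 30 members near red cell genes, among them those near Gata1, Bcl11a, Ikzf1 and Lmo2, had no peak in the shorter list of any replicate.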

How the data were processed

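DNase-seq of embryonic mouse liver was analysed from 3 biological replicates of 1 group. Per the deposited notes beside the files, the files were made per sample from filtered mm10 alignments; which aligner and callers were used is not given in the sources used here, nor is the depth of the libraries. The authors deposited 2 peak lists per replicate, whose thresholds are not stated, with a read-depth normalized signal per peak. The footprints the authors deposited carry 1 false discovery rate threshold, a q-value of 0.01, and the listed cut-rate bases passed 0.05.

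GENCODE M21 supplied the gene starts and GRCm38 the sequence. Overlaps, shares and sign-flip tests over replicates were computed with Python 3.11.15, numpy 2.4.6, pandas 2.3.3 and pysam 0.24.0, and the overlap step was tested on simulated data. No p-value passes a threshold with 3 replicates. Members named are the 20 strongest open in all replicates, those open in all within 100 kb of a red cell gene (up to 15), every known lncRNA on the list, the 3 strongest over 100 kb from coding starts, the 2 strongest per gene type and the 3 most variable, with exceptions stated. Members and lists were chosen with earlier results of these data known. Alternatives were the longer list, the upper 50% of peaks, other windows, overlaps and distances, other annotated starts and leaving out each replicate. A further red cell marker is not reported here.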

Additional observations from a re-analysis of the deposited data

How the results depend on the processing

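Over 6 main results 101 alternatives were computed. Size was judged only for the shares of open members, where 3 alternatives moved by more than the spread between replicates or over 1.5 times. The differences were judged by direction alone, and none reversed, but their sizes changed. The difference from coding starts, at -43.5 ± 0.966 points, was -38.3 with the upper 50% of peaks and -48.9 in windows with over 90% unique words. The log2 signal difference, at -1.80 ± 0.46, was -2.24 with the longer list and -1.03 with the upper 50% of peaks. The footprint difference, at -4.45 points, was -13.3 with the longer list, -1.52 with the upper 50% of peaks and -1.78 with equal numbers of peaks. The mean share of open members was 8.89% with the longer list and 3.13% with the upper 50% of peaks, which left 1.97% of members open in all 3 replicates; fewer or more peaks enter by construction. Leaving out 1 replicate gave 4.20% to 5.85% open in all that were left, a mean share of 5.17% to 7.23%, a difference from coding starts of -44.1 to -43.1 points, a log2 signal difference of -2.01 to -1.55, a footprint difference of -5.56 to -2.32 points and a difference near red cell genes of 8.29 to 16.0 points. An alternative with equal numbers of the strongest peaks, chosen after seeing the data, gave 3.44% open in all 3, a log2 signal difference of -1.39 and a difference near red cell genes of 10.5 points. That last difference was 8.78 when every transcript of coding genes set the 5 kb rule, and 9.49 without windows holding a RefSeq mRNA or coding-gene transcript start. With the longer list the named members Dnm3os, Trp53cor1, Bvht, Mir17hg, Xist, Lncpint, Meg3, Mir155hg and Mirt1 gained mean signal; the first 3 did so by more than their spread between replicates in the shorter list, where Trp53cor1 and Bvht were at 0. There is 1 group, so no pairing between groups arises, and the differences above were taken within each replicate. The 3 replicates and the unstated depth limit what weak windows can show.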

Other observations

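Open lncRNA starts with little CpG included some of appreciable strength. E130018N17Rik, 52.4 kb from Adnp, had a CpG ratio of 0.199 and a signal of 5.61, 9.55 and 5.33 in replicates 1, 2 and 3, and Gm28857, near AA986860, had a ratio of 0.192 and 3.78, 6.82 and 3.55. These were the strongest of the 41 open members with a ratio under 0.25. Gm28286, 133 kb from Glul, had a ratio of 0.235, a signal of 3.01, 5.20 and 2.58 and a WGATAA match in a footprint of all 3 replicates. These were picked after their values were seen and carry no test.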
